A study of Mus musculus with 16 samples.

Results

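The 40 genes described here are genes of S phase, G2 and mitosis: factors that copy DNA, the kinases and transcription factors that drive S phase and entry into mitosis, and proteins of the centromere, spindle and dividing cell body. They were chosen by name, and all 40 were found among the 16118 genes of the expression table. By role, 10 act in DNA replication and nucleotide supply, 7 are S phase cyclins, kinases or transcription factors, 5 are kinases and cyclins of mitotic entry, 2 are general marks of cycling cells, 7 belong to the centromere and the spindle checkpoint, and 9 to the spindle and cytokinesis. The question they address is whether adult hearts re-entered the cell cycle after the loss of Meis1 and Meis2, a pair of homeodomain transcription factors.

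Polyadenylated RNA was sequenced from the atria and the ventricles of 8 adult male littermate mice, which gave 16 libraries in 4 groups of 4. Every mouse was Meis1flox/flox and Meis2flox/flox, and hearts were collected 2 weeks after tamoxifen. The idKO mice carried alpha-MHC-MerCreMer tg/wt, a Cre recombinase that tamoxifen switches on and that the alpha-MHC promoter restricts to cardiomyocytes. The control mice were alpha-MHC-MerCreMer wt/wt, so they lacked the recombinase, and an effect of Cre itself cannot be told apart from the loss of the Meis genes in any idKO difference. The age of the mice was not among the labels used here. Other cells of the heart, which hold most of the cycling cells of an adult heart, do not express the transgene and were part of the same tissue pieces.

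In a dividing cell, E2F factors switch on the replication genes before S phase, and a later wave of genes for G2 and mitosis is switched on by complexes that bind CHR and CCAAT elements in their promoters. In quiescent cells the DREAM complex keeps both waves off. Mouse cardiomyocytes leave the cycle soon after birth, and most then stay out of it, so a return to the cycle would raise many of these genes together.

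Library sizes, recovered from the table, ran from 13.1 to 21.8 M (mega) reads, and each value is a read count scaled to CPM, counts for each 1e6 reads, of an effective library size, called a normalised count below. A single read was worth between 0.0540 and 0.101 of that unit, depending on the library. Counts over the whole transcript of the targeted genes include exons outside the deleted part, so they are a partial check of the labels. Meis2 averaged 26.8 ± 4.24 (SD, n = 4) in control ventricles and 8.82 ± 0.848 in idKO ventricles, with no overlap, and 20.0 ± 1.48 against 17.7 ± 1.64 in atria, with overlap. Meis1 averaged 27.3 ± 0.767 in control and 23.1 ± 2.29 in idKO ventricles, and 28.3 ± 2.86 in control and 29.7 ± 2.76 in idKO atria. MerCreMer holds a part of the mouse estrogen receptor, and reads assigned to its gene, Esr1, were at 3169, 2292, 3293 and 3641 normalised counts in idKO ventricles and at 170, 98.7, 154 and 322 in idKO atria. Control ventricles held 0.318 to 1.84 and control atria 4.06 to 6.17. All 8 idKO libraries thus stood above all control libraries, but the idKO atria were far below the idKO ventricles. Cardiomyocyte markers summed to between 83179 and 88216 in control ventricles and between 73631 and 84367 in idKO ventricles, with all 8 listed markers in the table. In such tissue, fewer cells of a type and less RNA per cell cannot be told apart.

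Promoters of 4 of the genes are shown first, Cenpf and Cenpa because they are the genes called in ventricles. Mki67 and Pcna are set beside them as usual marks of cycling cells. Each run holds 300 bases from RefSeq on GRCm38.p6, from 250 bases before to 50 bases after the annotated start, on the strand of the gene. Capitals mark the CHR letters TTTGAA and the CCAAT box on either strand, so that ATTGG is a CCAAT box read from the other strand. The windows are chr1:189688037-189688336 on the minus strand for Cenpf, chr5:30666636-30666935 on the plus strand for Cenpa, chr7:135716330-135716629 on the minus strand for Mki67 and chr2:132253131-132253430 on the minus strand for Pcna.
Cenpf: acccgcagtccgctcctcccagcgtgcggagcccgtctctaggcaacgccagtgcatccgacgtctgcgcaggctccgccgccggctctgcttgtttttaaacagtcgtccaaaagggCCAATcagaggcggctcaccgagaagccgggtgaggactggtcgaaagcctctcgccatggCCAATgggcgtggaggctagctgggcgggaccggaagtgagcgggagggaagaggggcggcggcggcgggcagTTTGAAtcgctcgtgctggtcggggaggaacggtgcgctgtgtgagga
Cenpa: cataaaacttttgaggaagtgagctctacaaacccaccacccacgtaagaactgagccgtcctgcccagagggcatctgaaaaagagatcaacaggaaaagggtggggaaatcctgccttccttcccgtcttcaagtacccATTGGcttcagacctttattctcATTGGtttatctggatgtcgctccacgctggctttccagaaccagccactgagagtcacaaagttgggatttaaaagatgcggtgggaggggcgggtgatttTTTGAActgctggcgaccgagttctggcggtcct
Mki67: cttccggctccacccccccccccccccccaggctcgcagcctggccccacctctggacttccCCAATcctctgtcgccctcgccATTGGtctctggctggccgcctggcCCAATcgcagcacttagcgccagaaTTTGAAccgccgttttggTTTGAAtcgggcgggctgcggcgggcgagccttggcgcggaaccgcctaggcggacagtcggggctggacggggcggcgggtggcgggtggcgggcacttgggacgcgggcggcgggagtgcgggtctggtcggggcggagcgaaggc
Pcna: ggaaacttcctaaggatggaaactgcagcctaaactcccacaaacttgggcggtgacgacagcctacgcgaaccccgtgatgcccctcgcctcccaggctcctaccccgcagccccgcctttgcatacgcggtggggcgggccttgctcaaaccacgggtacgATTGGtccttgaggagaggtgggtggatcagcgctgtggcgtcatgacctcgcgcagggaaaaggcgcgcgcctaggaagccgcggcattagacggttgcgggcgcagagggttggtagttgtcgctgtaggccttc

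In these windows Cenpf, Cenpa and Mki67 each held CHR letters and at least 1 CCAAT box, while Pcna, which acts at the replication fork, held a CCAAT box and no CHR letters. The CHR letters of Cenpf began 3 bases after the start, and its CCAAT boxes began 132 and 71 bases before it. Promoters of 33 of the 40 genes were in the table of promoters; those of Foxm1, Aurkb, Ccne2, Ccna2, Mcm4, Tpx2 and Kif20a were not matched. CHR letters were present in 16 of them (48.5%), against 20.2% of all 27025 genes with a promoter in the table. CCAAT boxes were present in 26 (78.8%), against 41.1% of all genes, and both elements in 15 (45.5%), against 8.97%. E2F letters, searched on both strands as TTTGGCGC, TTTCCCGC, TTTGCCGC and TTTCGCGC, were present in 6 (18.2%), against 2.61%. The core letters of the MEIS motif, TGACAG on either strand, were present in 4 of the 33 (12.1%: Anln, Ect2, Top2a and Tyms), against 21.6% of all genes, and not in the windows of Cenpf, Cenpa, Mki67 or Pcna. A match is a stretch of letters and not a known binding site, and a missing match says only that these letters were not in the window.

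In ventricles, none of the 21 cell cycle genes that could be tested was called higher in the idKO hearts, and 2 fell: Cenpf, a large kinetochore protein that binds microtubules, and Cenpa, the histone H3 variant that marks centromeres. Cenpf fell to 14.7% of its control level and Cenpa to 74.9%. Genes entered the test when 4 or more of the libraries compared reached 1 CPM, and the other 19 of the 40 did not. For this filter CPM was taken of the summed values of a library, not of its effective size, which made the limit stricter in ventricles. Tyms, at 1.25 to 3.18 normalised counts in ventricles, was therefore among the genes not tested. Among the 21 genes tested, limma with Benjamini-Hochberg adjustment over all 13144 genes called 0 higher and 2 lower at an adjusted p under 0.05, and 19 were not called. Over all genes tested in ventricles, 0.533% were called higher and 1.5% lower, 2.03% in all. By unadjusted p, 4 of the 21 were under 0.05, against 1967 of the 13144. The log2 difference was positive for 7 and negative for 14, with a median of -0.05, against -0.01 over all genes.

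Cenpf had the largest difference between genotypes of the 21. In control ventricles it was at 47.2, 41.8, 58.7 and 60.4 normalised counts, from 557 to 854 reads a library. In idKO ventricles it was at 9.07, 5.46, 9.05 and 7.03, from 64 to 119 reads. All 4 idKO libraries lay far below all 4 control libraries, and the groups did not overlap. The log2 fold change was -2.62 ± 0.16 (SE; 95% interval -2.96 to -2.28; limma adjusted p = 1.0e-06, Benjamini-Hochberg). It was called under all 20 alternative settings of the processing, with log2 fold changes between -2.75 and -2.49.

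In atria Cenpf was low in both genotypes. Control atria held 4.37, 5.35, 5.05 and 6.16 normalised counts and idKO atria 2.93, 2.23, 6.85 and 3.75. The idKO atria included both the lowest and the highest of these 8 values, and the difference was not called (log2 fold change -0.41 ± 0.24, limma adjusted p = 0.966). The genotype effect itself differed between the chambers: the effect in atria minus that in ventricles was 2.21 ± 0.31 on the log2 scale (limma adjusted p = 0.0015). Cenpf was the only 1 of 28 genes of the set for which this difference was called, and over all genes tested 0.296% were called, 0.269% with a higher effect in atria and 0.0269% with a lower one. The targeted genes were less reduced in idKO atria than in idKO ventricles (Meis2 at 88.8% against 33.0% of control, Meis1 at 104.7% against 84.5%), and Esr1 reads were lower there. The part of this in the chamber difference, and in the atrial results below, was not tested.

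Between the chambers of control hearts, Cenpf was 9.94-fold higher in ventricles (52.0 ± 9.002, n = 4) than in atria (5.23 ± 0.742), with a log2 difference, atrium minus ventricle, of -3.08 ± 0.22 (limma adjusted p = 6.4e-10). In idKO hearts the ventricles (7.65 ± 1.75) were 1.94-fold above the atria (3.94 ± 2.04), a comparison added after the data were seen (log2 difference -0.87 ± 0.22, limma adjusted p = 0.0024). A chamber difference as such was common: over all genes tested, 28.7% were called lower in atria than in ventricles of control hearts (56.9% in either direction), and 27.1% in idKO hearts (53.8% in either direction). Of 35 further mitotic genes tested, 6 were called lower and 7 higher in atria of control hearts. Among them Sgo2a had a log2 difference of -2.92 in control hearts (limma adjusted p = 6.9e-11) and of -2.49 in idKO hearts. The levels of Cenpf, from highest to lowest, ran from control ventricle through idKO ventricle and control atrium to idKO atrium, and neither the idKO ventricles and control atria nor the 2 atrial groups were separated beyond their spread.

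**Figure D1:**
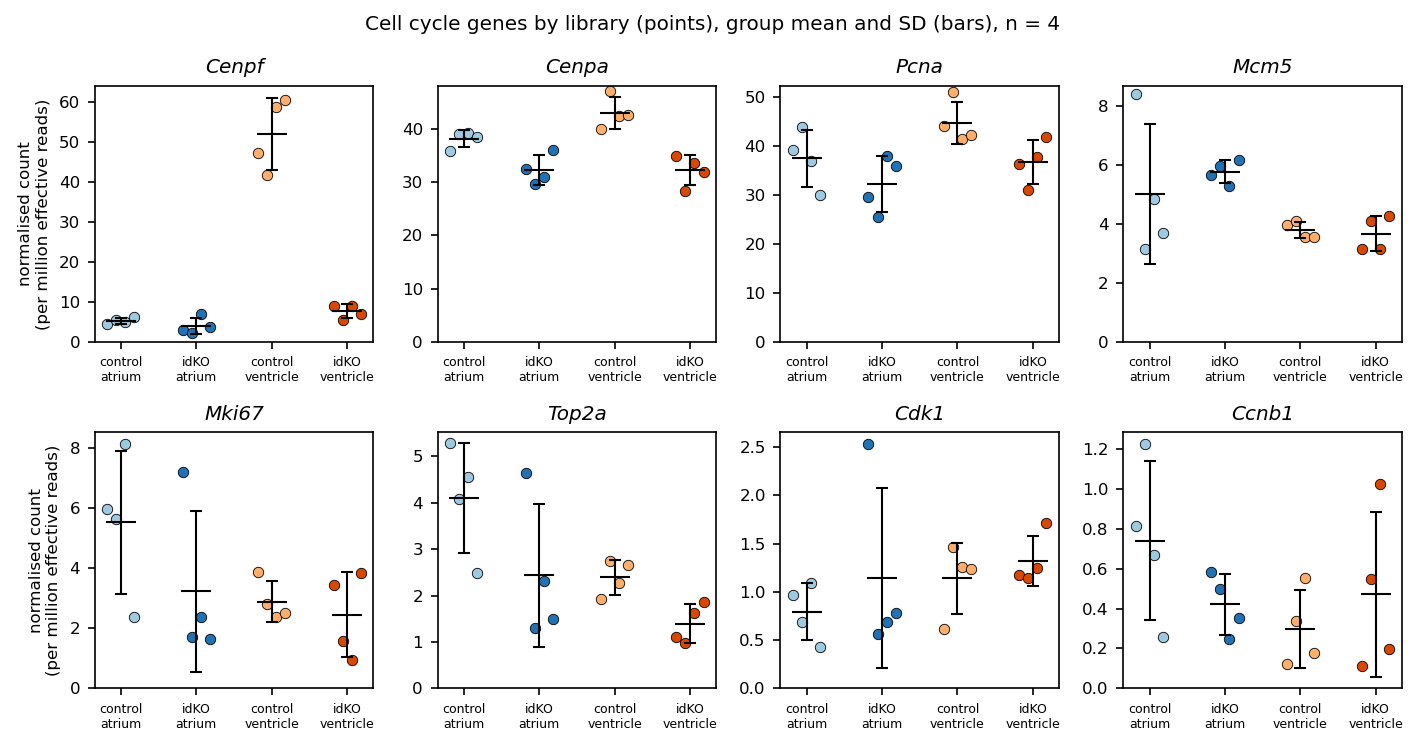
Normalised counts (CPM of the effective library size, linear axes from 0) of 8 cell cycle genes in each of the 16 libraries, as points coloured by group, with bars for the mean and SD of 4 libraries. Cenpf stands between 41.8 and 60.4 in control ventricles and at or below 9.07 in the other 12 libraries, whereas Mki67 and Ccnb1 overlap between genotypes in both chambers.

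Cenpf lies on chromosome 1 at 189640606 to 189688086 on the minus strand of GRCm38, and the only annotated gene that overlaps it is the pseudogene Gm37239. No neighbouring gene was called in ventricles. Ptpn14, a phosphatase gene, averaged 54.7 ± 6.10 in control and 56.6 ± 4.63 in idKO ventricles (log2 fold change 0.05, limma adjusted p = 0.844). Smyd2, a lysine methyltransferase gene, averaged 140.1 ± 7.496 and 130.8 ± 7.81 (-0.10, limma adjusted p = 0.515). The other 2 genes tested within 250 kb, Kcnk2 and Gm37422, had log2 fold changes of -0.03 and 0.34.

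Transcript length bears on such levels, since a long mRNA gathers more reads. Per kilobase of exon, Cenpf stood at 3.37 in control ventricles, which ranked 3 of 40 after Pcna (18.6) and Cenpa (7.35), and at 0.496 in idKO ventricles, which ranked 14. In control and idKO atria it ranked 23 (0.339) and 27 (0.255). In control ventricles Cenpf alone made up 20.0% ± 2.72 (SD, n = 4) of the summed normalised counts of the 40 genes. In idKO ventricles its share was 3.99% ± 0.843, and in control and idKO atria 2.23% ± 0.511 and 1.82% ± 0.908.

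**Figure D2:**
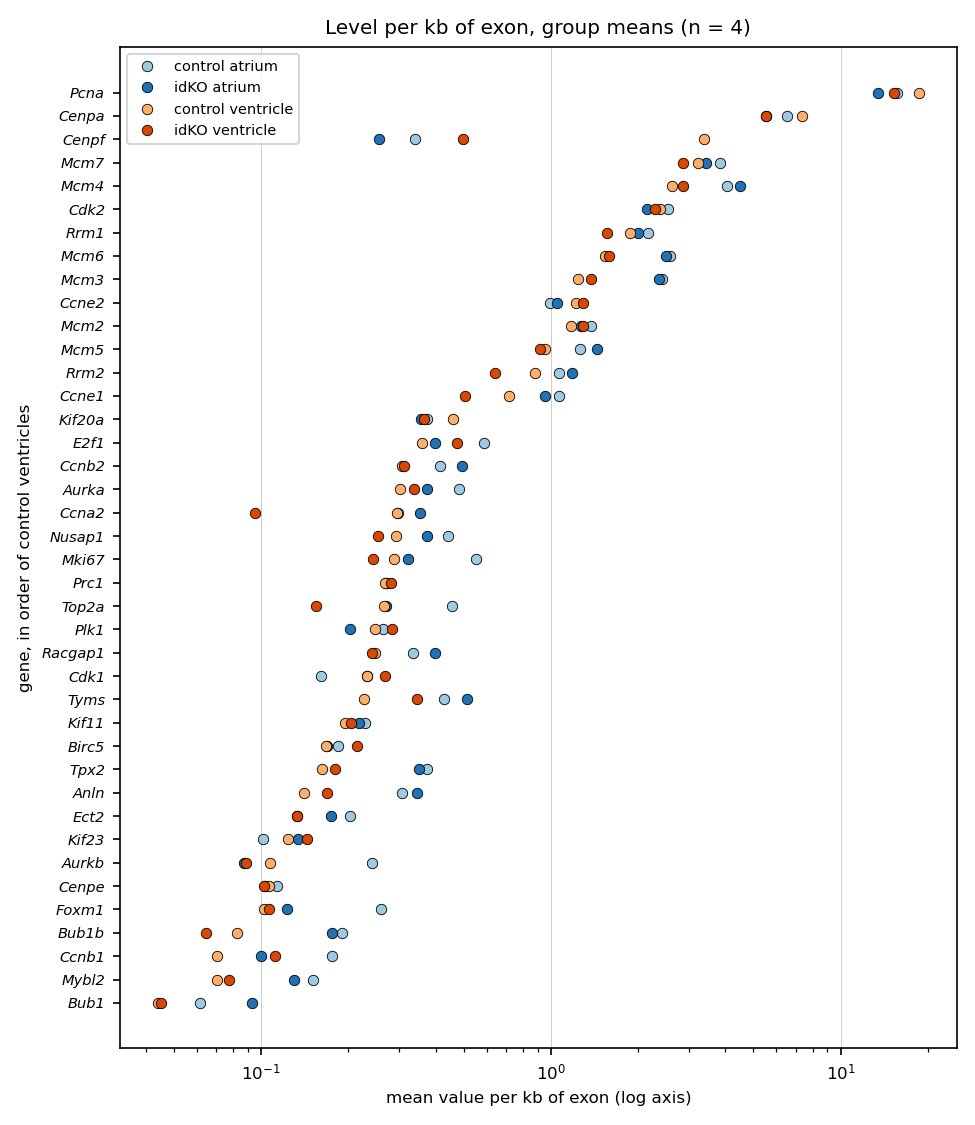
Mean normalised count per kilobase of exon (log axis) of each of the 40 genes in the 4 groups, as points coloured by group, with genes in the order of their level in control ventricles. Cenpf ranks 3 in control ventricles at 3.37 and lies at 0.496 in idKO ventricles, 0.339 in control atria and 0.255 in idKO atria.

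Cenpa, on chromosome 5 at 30666777 to 30674830 on the plus strand, fell by a much smaller step. Control ventricles held 39.99, 47.2, 42.5 and 42.6 normalised counts and idKO ventricles 35.0, 28.4, 33.7 and 32.0, with no overlap. The log2 fold change was -0.41 ± 0.09 (limma adjusted p = 0.028). The call was lost in 7 of 20 alternatives, with limma adjusted p between 0.054 and 0.089 there, among them the fit without a filter on low values and those that left out control ventricle replicates 2, 3 or 4 or idKO ventricle replicates 2 or 3. In atria, control libraries held 35.8, 39.2, 39.2 and 38.5 and idKO libraries 32.4, 29.6, 31.0 and 36.1. These overlapped in 1 library, the idKO atrium of replicate 4, and the log2 fold change of -0.24 ± 0.08 was not called (limma adjusted p = 0.966). The difference between the chambers' effects was 0.17 ± 0.11 (limma adjusted p = 0.880).

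Of the other members of the centromere and checkpoint group, Cenpe, Bub1, Bub1b, Aurkb and Birc5 did not pass the filter in ventricles. Proteins that CENP-F is known to bind were listed separately, and 5 of the 6 were tested in ventricles. Of these, 0 were called higher and 1 lower, against 0.533% and 1.5% of all genes tested. The 1 called lower was Rhot2, a mitochondrial GTPase that recruits CENP-F to mitochondria. It was at 215, 230, 199 and 205 normalised counts in control and 162, 152, 165 and 187 in idKO ventricles (log2 fold change -0.35 ± 0.07, limma adjusted p = 0.024). In control hearts Rhot2 was lower in atria than in ventricles (log2 difference -1.23, limma adjusted p = 2.1e-10), as was Cenpf. Of the 5 binding proteins tested, 3 were called lower and 1 higher in atria of control hearts. Over all genes tested, 28.7% were called lower and 28.2% higher there.

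**Figure D3:**
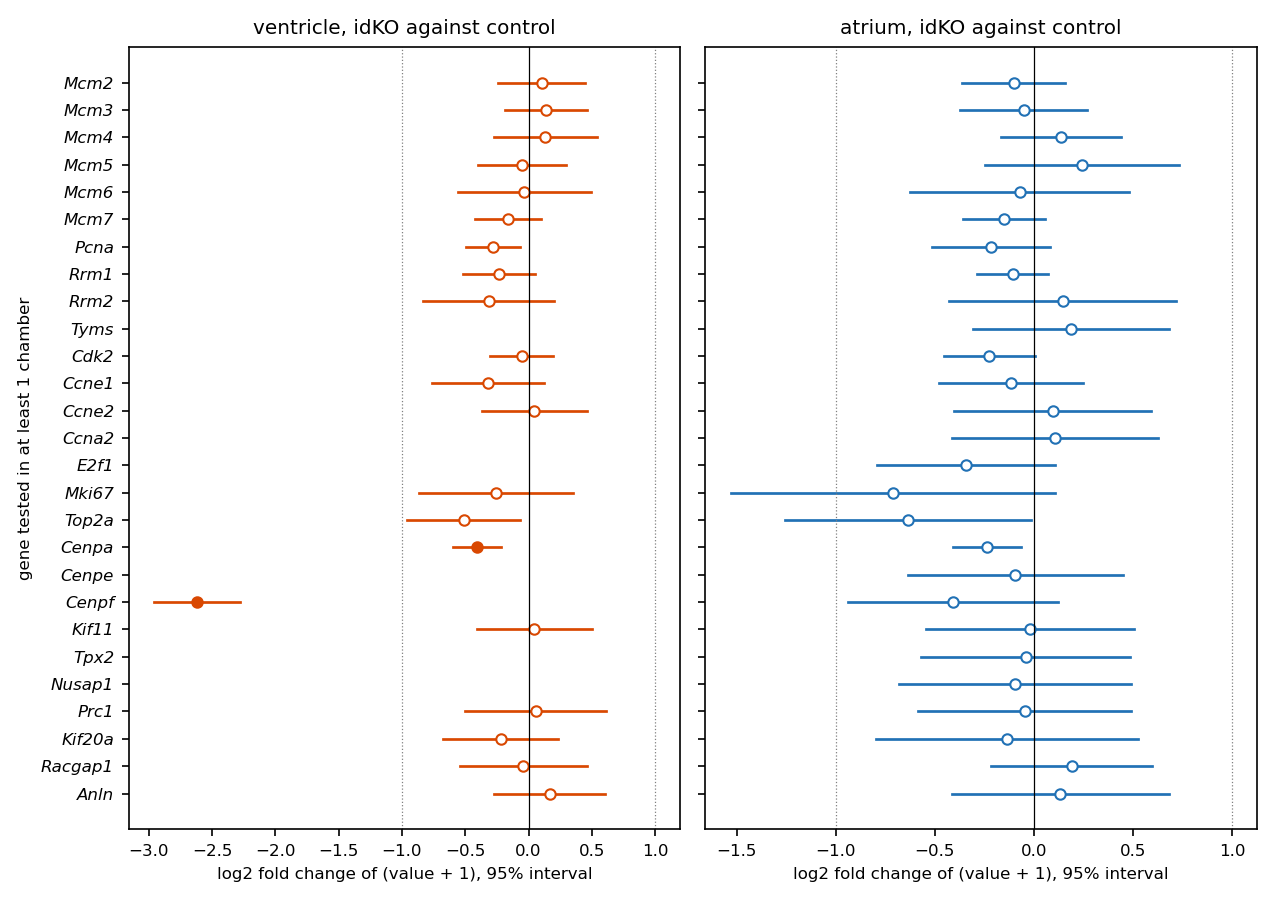
Log2 fold change (idKO against control, of value + 1) with its 95% interval for every gene tested in at least 1 chamber, ventricles at left and atria at right on separate scales, with filled points for genes called by limma at an adjusted p under 0.05 and dotted lines at a 2-fold change. Cenpf at -2.62 and Cenpa at -0.41 are the filled points, both in ventricles, and no interval reaches the line of a 2-fold rise.

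In the replication group, which holds the MCM helicase subunits, Pcna, the ribonucleotide reductase subunits Rrm1 and Rrm2 and thymidylate synthase Tyms, 9 of 10 genes were tested in ventricles and none was called, with log2 fold changes between -0.31 and 0.14. Pcna, the sliding clamp of DNA polymerase, was at 44.2, 51.0, 41.4 and 42.2 in control ventricles and at 36.3, 31.0, 37.7 and 41.8 in idKO ventricles. The highest idKO library lay within the control range, and the log2 fold change of -0.28 ± 0.10 was not called (limma adjusted p = 0.195). Mcm5, a subunit of the replicative helicase, was at 3.96, 4.08, 3.57 and 3.57 in control and at 3.15, 4.11, 3.14 and 4.25 in idKO ventricles, and its groups overlapped (log2 fold change -0.05, limma adjusted p = 0.932). Summed over the 10 genes, control ventricles ranged from 115 to 120 and idKO ventricles from 105 to 107, without overlap and with no test; Pcna is the most abundant of the 10.

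Of the S phase cyclins, kinases and transcription factors, 3 of 7 were tested in ventricles and none was called (log2 fold changes -0.32 to 0.04). Cdk2, the S phase kinase and the most abundant of them, was at 14.6, 13.0, 16.9 and 14.6 in control and at 12.4, 13.9, 16.2 and 14.2 in idKO ventricles. The ranges overlapped almost wholly (log2 fold change -0.05 ± 0.12, limma adjusted p = 0.884). The gene overlaps Pmel, and whether counting used strand is not known. Ccna2, the cyclin of S phase and G2, was too low to be tested in ventricles. Over all genes tested there, 5.81% did not overlap between genotypes with idKO lower. Ccna2 is described here because its values were seen not to overlap between genotypes. Its locus overlaps Exosc9, so its reads may include some of that gene. Control ventricles held 1.51, 0.936, 1.26 and 1.10 (12 to 18 reads) and idKO ventricles 0.721, 0.296, 0.265 and 0.278 (3 to 9 reads). Without a filter on low values its log2 fold change was -0.67 and was not called (limma adjusted p = 0.063), and the difference of its genotype effects between chambers was not called either (0.78 ± 0.29, limma adjusted p = 0.612).

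None of the 5 kinases and cyclins of mitotic entry (Cdk1, Ccnb1, Ccnb2, Plk1 and Aurka) passed the filter in either chamber. Cdk1, the kinase that starts mitosis, was at 0.613, 1.46, 1.26 and 1.24 in control and at 1.18, 1.14, 1.25 and 1.71 in idKO ventricles. Ccnb1, its cyclin partner, was at 0.123, 0.337, 0.553 and 0.177 in control and at 0.114, 0.550, 1.02 and 0.199 in idKO ventricles, from 1 to 13 reads a library. Both genes overlapped between genotypes, and at this depth a difference between a few reads and a few more was not detectable. Their sum with the other genes of the group ranged from 1.84 to 4.49 in control and from 3.43 to 4.41 in idKO ventricles.

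The general marks of cycling cells were also low. Mki67, a protein that coats mitotic chromosomes, was at 3.88, 2.81, 2.36 and 2.51 in control and at 3.45, 1.57, 0.946 and 3.86 in idKO ventricles. The idKO range enclosed most of the control range, and the log2 fold change was -0.26 ± 0.28 (95% interval -0.86 to 0.35, limma adjusted p = 0.725). Top2a, the topoisomerase that untangles replicated chromosomes, was at 1.92, 2.73, 2.26 and 2.65 in control and at 1.10, 0.974, 1.63 and 1.87 in idKO ventricles. Every idKO library lay below every control library, but the difference was not called (log2 fold change -0.51 ± 0.21, limma adjusted p = 0.262). With Cenpf and Cenpa, Top2a made 3 of the 21 tested genes whose ventricle groups did not overlap with idKO lower, against 5.81% of all genes, and 0 of 21 did so with idKO higher, against 3.17%.

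In the spindle and cytokinesis group, 5 of 9 genes were tested in ventricles and none was called (log2 fold changes -0.22 to 0.17). Prc1, which bundles the microtubules of the central spindle, was at 3.23, 2.36, 1.06 and 2.16 in control and at 3.38, 2.58, 1.40 and 1.87 in idKO ventricles, with near-complete overlap (log2 fold change 0.06 ± 0.26, limma adjusted p = 0.953). Anln, the cytokinesis scaffold anillin, had the largest positive log2 fold change of the 21, at 0.17. The summed level of the group ranged from 10.2 to 13.4 in control and from 11.02 to 13.4 in idKO ventricles.

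The intervals bound how large a rise could have been missed. Among the 21 genes tested in ventricles, the highest upper 95% bound was 0.62 on the log2 scale (Prc1), and all 21 upper bounds were under 1, which is a 2-fold change of value + 1. Apart from Cenpf, the lowest lower bound was -0.96 (Top2a). The intervals of 17 of the 21 held 0. These bounds are on log2(value + 1), which understates the change of genes at a few normalised counts. The 19 genes not tested in ventricles had group means between 0.191 and 2.10 and between 0 and 37 reads a library, and Ccna2 was the only 1 of them whose groups did not overlap. Over the genes tested, 5.81% did not overlap with idKO lower and 3.17% with idKO higher. No such share was taken over genes below the filter. Among the 19 genes, the mean in idKO ventricles was 158% of control for Ccnb1, 152% for Tyms and 132% for E2f1, with overlapping libraries in each case. When all 40 genes were fitted with no filter, Cenpf was the only gene called in ventricles (limma adjusted p = 1.9e-04), and Cenpa had an adjusted p of 0.058.

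Summed over all 40 genes, control ventricles ranged from 249 to 269 normalised counts and idKO ventricles from 183 to 196. Without Cenpf the sums ranged from 202 to 210 in control and from 178 to 187 in idKO ventricles. Without Cenpf, Cenpa and Pcna they ranged from 111 to 126 and from 110 to 119, and overlapped. Most of the lower sum in idKO ventricles thus lay in these 3 genes, a set formed after their values were seen.

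**Figure D4:**
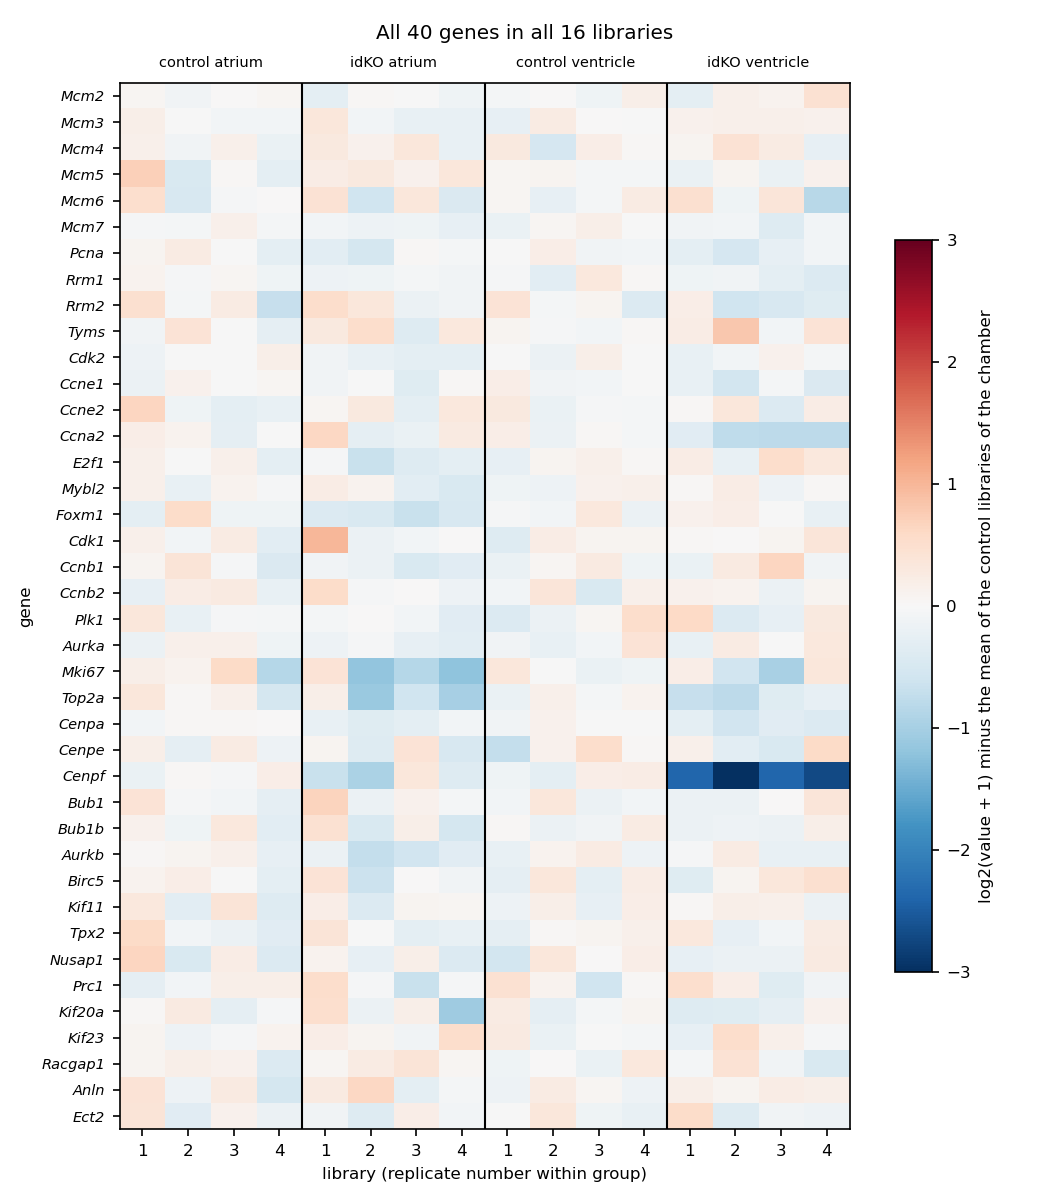
Log2(value + 1) of each of the 40 genes in each of the 16 libraries, minus the mean of the control libraries of the same chamber, with genes as rows, libraries as columns and colour from -3 (blue) to 3 (red). The Cenpf cells of the 4 idKO ventricle libraries are the darkest blue, and no gene shows red of like strength across the 4 idKO libraries of a chamber.

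In atria no cell cycle gene was called. Of the 27 tested, limma called 0 higher and 0 lower, and 2 (Cenpa and Top2a) had an unadjusted p under 0.05. Over the 14523 genes tested in atria, 0.0207% were called in either direction and 670 had an unadjusted p under 0.05. The log2 difference was positive for 8 and negative for 19 of the 27, with a median of -0.09, against -0.00 over all genes. The highest upper bound was 0.73 (Mcm5), so all 27 were under a 2-fold rise of value + 1, and the lowest lower bound was -1.53 (Mki67). For genes at a few normalised counts, a larger rise of the value itself lies within such a bound.

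Both general marks of cycling cells varied widely between atrial libraries. Mki67 was at 5.99, 5.64, 8.15 and 2.38 in control atria and at 7.22, 1.70, 2.38 and 1.65 in idKO atria (log2 fold change -0.71 ± 0.37, limma adjusted p = 0.966). Top2a was at 5.30, 4.09, 4.55 and 2.49 in control and at 4.64, 1.301, 2.32 and 1.48 in idKO atria (-0.63 ± 0.28, limma adjusted p = 0.966). In idKO atria the library of replicate 1 was the highest for both genes, and for 22 of 39 genes of the set (Cenpf left out). Cdk1 was likewise at 2.54 in that library and between 0.567 and 0.783 in the other 3 idKO atria. In control atria, replicate 1 was the highest for 17 of 39 genes and replicate 4 the lowest for 20 of 39. Replicate 1 also had the fewest reads in control atria (13.1 M) and in idKO atria (13.2 M).

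Lymphocyte markers also differed between atrial libraries. The summed normalised counts of 6 lymphocyte markers (of 8 listed), most of them from the immunoglobulin heavy chain gene Ighm, were 256, 232, 676 and 144 in control atria and 408, 10.7, 197 and 15.2 in idKO atria. In ventricles they were between 8.84 and 16.2 in controls and between 10.7 and 16.2 in idKO hearts. The control atrium of replicate 3 and the idKO atrium of replicate 1 had the highest sum and the highest Mki67 of their groups, and the control atrium of replicate 4 the lowest of both in its group. The orders did not match throughout: Top2a was highest in the control atrium of replicate 1, and in idKO atria the lowest sum was in replicate 2 and the lowest Mki67 in replicate 4. Of these 6 markers, 0 were called between genotypes in atria, where 0.0207% of all genes tested were called. All 6 had a negative log2 fold change there, with a median of -1.33. An unadjusted limma p under 0.05 was found for 3 of the 6, against 670 of all 14523 genes tested. The part of lymphocytes in the level of Mki67 and Top2a was not tested.

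**Figure D5:**
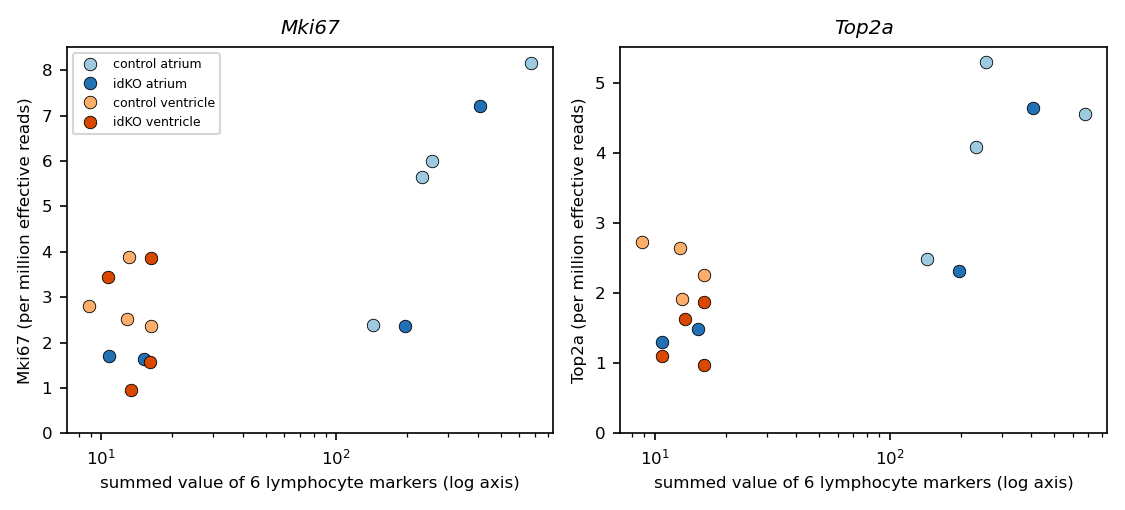
Normalised counts of Mki67 (left) and Top2a (right) against the summed normalised counts of 6 lymphocyte markers (log axis) in the 16 libraries, coloured by group. Ventricular libraries lie between 8.84 and 16.2 on the marker axis, and atrial libraries spread from 10.7 to 676.

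The other usual marks of cycling cells overlapped between genotypes in atria. Pcna was at 39.2, 43.9, 36.9 and 30.0 in control and at 29.5, 25.6, 37.9 and 35.9 in idKO atria (log2 fold change -0.22, limma adjusted p = 0.966). Mcm5 was at 8.39, 3.14, 4.83 and 3.70 in control and at 5.66, 5.97, 5.27 and 6.18 in idKO atria, so that 1 control library stood above and 3 below all idKO libraries (0.24 ± 0.22, limma adjusted p = 0.966). Cdk1 was at 0.966, 0.687, 1.09 and 0.430 in control atria, and Ccnb1 was at 0.812, 1.22, 0.670 and 0.258 in control and at 0.585, 0.5003, 0.246 and 0.351 in idKO atria. Cdk2 was at 13.96, 15.7, 15.6 and 18.02 in control and at 14.6, 13.4, 12.8 and 12.7 in idKO atria, lower in most idKO libraries but overlapping in 1 (log2 fold change -0.23 ± 0.11, limma adjusted p = 0.966). Prc1 was at 1.66, 2.001, 2.58 and 2.61 in control and at 3.63, 2.10, 1.01 and 2.13 in idKO atria, where the libraries spread to both sides of the control range (-0.05 ± 0.25, limma adjusted p = 0.997).

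Among the tested genes, Mcm7, another helicase subunit, was the 1 of 27 whose atrial groups did not overlap, at 16.9 ± 1.40 in control and 15.1 ± 0.755 in idKO atria (log2 fold change -0.15, limma adjusted p = 0.966). It was named after its values were seen, and 1.3% of all genes did not overlap with idKO lower in atria and 1.52% with idKO higher. Mcm7 overlaps Cops6 and Ap4m1, so its reads may include some of theirs. Of the 13 genes not tested in atria, whose values ran from 0.0286 to 2.54, Foxm1 alone did not overlap. This transcription factor of the G2 and mitotic genes, also named after its values were seen, was at 0.966, 2.54, 1.23 and 1.23 in control and at 0.819, 0.767, 0.519 and 0.729 in idKO atria.

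Between the chambers of control hearts, 6 of 28 genes tested were called higher in atria, against 28.2% of all genes. Cenpf, 1 of 28, was called lower, against 28.7% of all genes. The log2 difference, atrium minus ventricle, was positive for 23 of the 28 (82.1%), against 51.3% of all genes, with a median of 0.25, against 0.02 over all genes. Mcm3 and Mcm4, a pair of helicase subunits, were at 4.65 ± 0.794 and 9.37 ± 2.33 in ventricles and at 9.10 ± 0.855 and 14.5 ± 1.92 in atria (limma adjusted p = 4.4e-05 and 0.0069). Anln was at 2.77 ± 1.05 against 1.27 ± 0.318 (limma adjusted p = 0.011), and the spindle assembly factor Tpx2 at 1.75 ± 0.836 against 0.761 ± 0.219 (limma adjusted p = 0.025). The other 2 were Tyms and the S phase cyclin gene Ccne1. With quantile normalisation 2 were called higher and 2 lower. With the mouse as a random effect, which pairs the atria and ventricles of each animal, 10 were called higher and 3 lower. The lymphocyte, fibroblast, macrophage and mesothelial marker sums were higher in control atria than control ventricles (for fibroblasts 1533 to 2490 against 1068 to 1276). The mural, cardiomyocyte and red blood cell (erythroid) sums were lower there (for mural markers, means of 530 against 885). The endothelial sums overlapped between these chambers (means of 942 and 910). The part of these cell types in the chamber differences was not tested.

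Beyond the 40 genes, no gene of the further cell cycle lists was called in ventricles. Of 45 further replication and origin licensing genes, 34 were tested and 0 were called in either direction, with a median log2 fold change of -0.06. Of 78 further mitotic genes, 30 were tested and 0 called (median -0.04), and of 18 genes of the E2F, RB and DREAM system, 15 were tested and 0 called (median -0.03). Of the G1 cyclins and CDK inhibitors, 10 were tested and 0 called (median 0.01). In atria 39, 34, 16 and 11 genes of these lists were tested, and 0 were called. Over all genes tested, 2.03% were called in ventricles and 0.0207% in atria. At these shares, lists of this size would hold few calls or none.

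Some markers of cell types differed between the ventricles of the 2 genotypes: 1 of 5 tested mesothelial, 1 of 8 macrophage and 1 of 8 cardiomyocyte markers were called, and 0 of 8 fibroblast, 0 of 8 endothelial and 0 of 6 mural markers. Over all genes tested in ventricles, 2.03% were called. The log2 fold change was positive for 7 of 8 fibroblast, 7 of 8 macrophage and 6 of 8 endothelial markers, with medians of 0.22, 0.21 and 0.07. It was positive for 3 of 6 mural (median 0.03), 1 of 8 cardiomyocyte (-0.07) and 0 of 5 mesothelial markers (-0.88), against 48.0% of all genes. Of 3 erythroid markers tested, 0 were called and 0 were positive (median -0.39). The 1 lymphocyte marker tested, at 0.22, was not called. The mesothelial marker Msln fell from 8.45 ± 1.52 to 3.37 ± 1.32 (limma adjusted p = 0.011), and the macrophage lysozyme gene Lyz2 rose from 151 ± 6.98 to 196 ± 22.8 (limma adjusted p = 0.029). The macrophage marker sum ranged from 343 to 349 in control and from 382 to 470 in idKO ventricles, the mesothelial sum from 28.5 to 41.3 and from 9.96 to 31.0, and the endothelial sum from 893 to 932 and from 888 to 964. Of the cardiomyocyte markers, Ryr2, the calcium release channel, fell from 2342 ± 177 to 1485 ± 179 (limma adjusted p = 0.0011). The part of these shifts in the levels of Cenpf and Cenpa was not tested.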

How the data were processed

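RNA was measured in 16 libraries, an atrium and a ventricle from each of 8 mice. Per the submitters' processing notes, reads were handled with cutadapt and RSEM 1.3.1 on genome build GRCm38. For the scaling tool, the strand setting and a low-count filter, the method is not given in the sources used. The deposited values are a normalised signal per gene: each came out as a whole number of reads (within 0.01) plus 0.5, scaled to CPM of an effective library size, for 100% of values. Effective size over recovered reads averaged 0.639 (control) and 0.687 (idKO) in ventricles and 0.947 (control) and 0.958 (idKO) in atria, so values are not shares of a library. No per-sample column was left unused.

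Groups came from the genotype and tissue labels. Genes with at least 1 CPM in 4 libraries of a fit were tested on log2(value + 1) with limma 3.58.1 (R 4.3.3), a prior that follows the mean level, two-sided tests and Benjamini-Hochberg adjustment over all genes, and called at an adjusted p under 0.05. In this filter and its alternatives, CPM was taken of the summed values of a library, not of its effective size. Each chamber was fitted alone, and differences between chambers on all 16 libraries. The design allowed for raw counts or normalised values, and the form for normalised values was used. Fits were tested on simulated data in which changes were planted only in genes of higher mean level. That test did not cover changes of genes at a few normalised counts. Alternatives were other pseudocounts, filters, scalings and priors, edgeR 4.0.16, DESeq2 1.42.0 and voom on the recovered reads, each library left out, and mouse blocks. Per the labels, an atrium and a ventricle with the same number came from the same mouse, and their deviations from group means correlated at 0.177 to 0.302 over 11802 genes. No replicate libraries were alike within sampling noise (mean chi-square per gene 8.08 to 16.8).

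Genes called in ventricles, atria or their difference are given in every library, as are Mki67, Top2a, Cdk1, Ccnb1, Mcm5 and Pcna and the most abundant gene of each role. Between control chambers the 4 genes with the smallest p in each direction are given by means. Of the other lists, the genes called between genotypes are given, and those called between chambers only in part. The 40 genes and all lists were chosen with earlier results of these data known. Positions are from GENCODE on GRCm38, to which all 40 matched. Of the 40, 18 overlap another annotated gene, and their reads may be shared with it. Of the table's genes, 206 had no name.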

Additional observations from a re-analysis of the deposited data

Results flagged for a closer look

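Of 160 groups of 4 libraries (40 genes in 4 groups), 10 held a library far from the other 3, where chance gives about 1 in 20 such groups. In control atria these were Mcm7 in replicate 3 (19.0, others 16.1 to 16.4), Ccne2 in replicate 1 (5.68, others 2.51 to 2.96) and Foxm1 in replicate 2 (2.54, others 0.966 to 1.23). In idKO atria they were Cdk1 (2.54, others 0.567 to 0.783) and Mki67 (7.22, others 1.65 to 2.38), both in replicate 1. In control ventricles Bub1 stood apart in replicate 2 (0.487, others 0.0503 to 0.123). In idKO ventricles Mcm7 was low in replicate 3 (10.6, others 13.1 to 13.4), Ccna2 high in replicate 1 (0.721, others 0.265 to 0.296), and Bub1b (0.517, others 0.189 to 0.212) and Nusap1 (1.55, others 0.797 to 0.889) high in replicate 4.

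The genotype effect on Cenpf differed between chambers, with the effect in atria minus that in ventricles at 2.21 on the log2 scale by the test of that difference.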

How the results depend on the processing

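Each count of genes was recomputed under 20 alternatives. None of the genes tested was called higher in ventricles, or in either direction in atria, under any of them, and 1 gene was called in the test of the difference between chambers under each. Cenpf kept its calls in ventricles (limma adjusted p up to 2.8e-04 over the alternatives), in the difference between chambers (2.04 to 2.38) and between control chambers (-3.30 to -2.89).

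The count called lower in ventricles was 1 in place of 2 with no filter on low values and with a prior without a trend, and between 1 and 2 when a library was left out, since Cenpa was lost (limma adjusted p from 0.054 to 0.083 without 1 library). Between control chambers, the count higher in atria was 2 with a filter of 5 CPM and 2 with quantile normalisation, 10 with the mouse as a random replicate block, and between 4 and 8 when a library was left out. The count lower in atria was 2 with quantile normalisation, 3 with either block, and between 1 and 2 when a library was left out. With either block Cenpa and Pcna were called lower in atria than in ventricles of control hearts (log2 difference -0.17 and -0.25), and the block moved no other count of calls by more than 1.5 times.

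Differences near 0 changed sign. Mcm5 in ventricles ran from -0.11 to 0.0060 with a library left out, and was 0.0050 without idKO ventricle replicate 1 and 0.0060 without replicate 3, and between control chambers -0.065 with quantile normalisation. The difference between chambers for Top2a was 0.0055 with edgeR, 0.015 with DESeq2, 0.061 without control mouse 1 and 0.097 without idKO mouse 4. For Pcna it was -0.011 without control mouse 4 and -0.0022 without idKO mouse 3. The causes were not tested. Over all genes in ventricles, edgeR called 77 higher and 183 lower, DESeq2 195 and 342, and voom 74 and 189. Depth limits the genes of mitotic entry, at 0 to 32 reads a library.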
